A study of Rattus norvegicus with 2 samples.

Results

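GABA-A receptors are chloride channels opened by the inhibitory transmitter GABA, and each channel is assembled from subunits of several classes. Alpha and beta subunits together form the GABA binding site, and the alpha subunit beside a gamma subunit forms the site where benzodiazepines act. In the nucleus of the solitary tract (NTS), the first brainstem relay of baroreceptor and other visceral afferents, GABA acting on these receptors inhibits second-order neurons and so takes part in blood pressure reflexes. The genes examined were 7 subunit genes, the alpha subunits Gabra2, Gabra3, Gabra4 and Gabra5, the beta subunits Gabrb1 and Gabrb2, and the gamma subunit Gabrg1. They were taken by name, through probes whose transcript accession belongs to these genes, and form 7 of 16581 genes named on the array. They have 9 probes of 1 spot each, with 1 probe for 5 genes and 2 probes for Gabra2 and Gabrb2.

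NTS tissue was compared between female and male spontaneously hypertensive rats (SHR), a strain that becomes hypertensive, all 9 weeks old and with free access to food and water. RNA of 5 females was pooled for 1 array and RNA of 5 males for the other, so 2 arrays were compared, and no normotensive strain is compared here. Without replicate arrays no p-value can be given, and a difference between the pools has no measure of animal-to-animal variation. In dissected tissue, fewer cells of a type and less RNA per cell cannot be told apart.

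Of 58717 spots outside the controls, 82.3% were well above background with RNA of the female pool and 80.1% with RNA of the male pool. Signals are given as scaled signal, on which the 75th percentile of each array is 100. Markers of NTS neurons were present: Th, the enzyme that makes the catecholamine precursor L-DOPA, had 531.7 in the female and 601.6 in the male pool, and Dbh, the enzyme that makes noradrenaline, had 381 in the female and 399 in the male pool. In all, 6 of 8 measured NTS markers were brighter in the female pool and 2 dimmer. The arrays differed in markers of adjoining tissue. All 10 measured choroid plexus markers were brighter in the female pool, with a summed scaled signal of 9554 in the female and 678 in the male pool. Most of each sum came from a single marker, at 9325 in the female and 617 in the male pool. All 8 oligodendrocyte markers were dimmer in the female pool (sum 1914 female, 2279 male), whereas 3 of 9 neuron markers were brighter there and 6 dimmer (sum 5775 female, 6008 male). Motor neuron markers (6 of 6) and blood markers (4 of 5) were also mostly dimmer in the female pool, and markers of cerebellar granule cells (5 of 6) mostly brighter. The summed signal of the granule cell markers differed little, at 76.9 in the female and 73.0 in the male pool. Most of it came from Zic1, which was 1.02-fold apart (62.0 female, 60.8 male). Of 6 meninges markers 5 were brighter in the female pool, but their summed signal was 890 in the female and 894 in the male pool. The part of these markers in the subunit values was not tested.

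All 7 subunit genes were well above background on both arrays, and none differed between the sexes by 1.5-fold or by 1.2-fold. Over all 13424 measured genes, 2.29% were at least 1.5-fold apart and 11.8% at least 1.2-fold apart. At these shares, finding none among 7 genes does not set them apart. The largest difference was in Gabra2, which was 1.13-fold lower in the female pool. The median difference of the 7 genes, female minus male, was -0.02 on the log2 scale, against 0.02 over all measured genes. Of the 7 genes, 2 were brighter and 5 dimmer in the female pool, and over all measured genes 7449 were brighter and 5975 dimmer there. The error of a difference was taken from the error that the scanner software gives for each spot, a median of 10.05% of the signal over the 9 probes in the female pool, which covers the reading of a spot but neither labelling nor animals. Of the 9 probes, 8 had a difference smaller than that error. Probes with at least 8 repeated spots gave a second error, the SD of the difference over spots. In 4 bins of signal its median was 0.039 on the log2 scale in the brightest, then 0.060, 0.115 and 0.231 in the dimmest. For bright probes the software error is thus the wider of the 2, and the SD over spots also covers neither labelling nor animals.

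**Figure D1:**
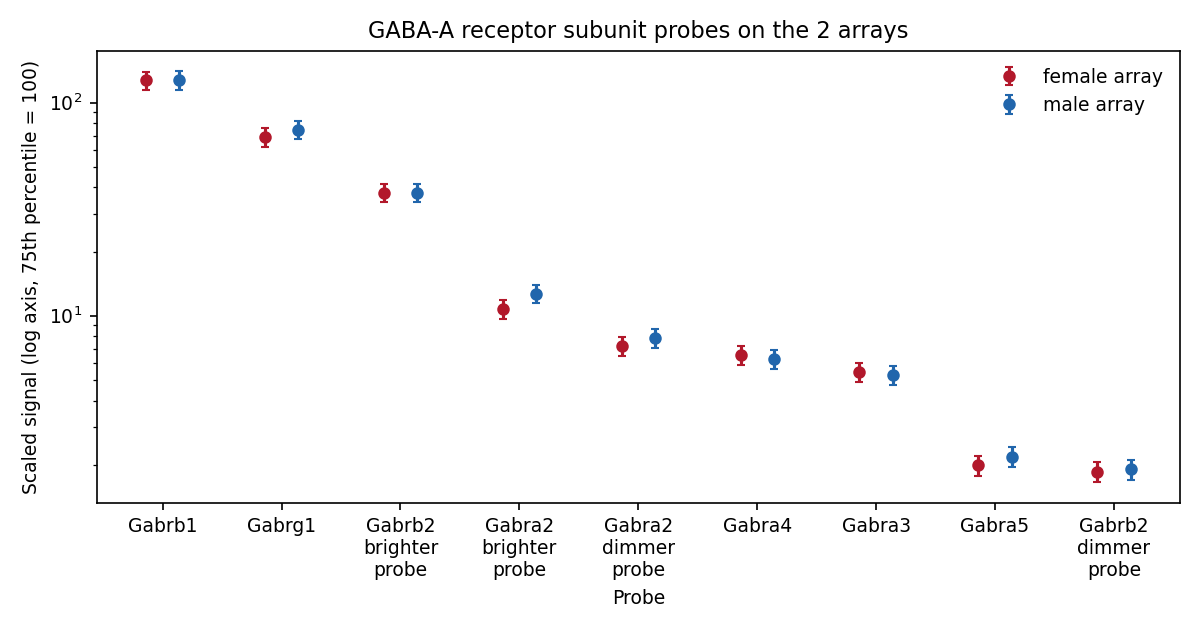
Scaled signal of the 9 probes of the GABA-A subunit genes on the female (red, left) and male (blue, right) array, on a log axis. Bars are the scanner software's error for the spot, and the female and male bars overlap for each probe.

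Gabra2 encodes the alpha2 subunit, common at synapses on the axon initial segment and a main target for the calming action of benzodiazepines. Its brighter probe (A_44_P378252) had a scaled signal of 10.8 in the female pool and 12.7 in the male pool. Its dimmer probe (A_44_P1080245) had 7.23 in the female pool and 7.83 in the male pool. Both probes were thus lower in the female pool, by 1.18-fold and by 1.08-fold. The brighter probe was the only one of the 9 whose difference, -0.24 on the log2 scale, exceeded its software error, of 0.20. As a mean of both probes the difference was -0.18, with a software error of 0.14 if the probes are taken as independent. When genes were sorted into 4 bins of signal, 70.1% of the 3138 genes in the bin of Gabra2 had a smaller difference in either direction.

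Gabra3 encodes the alpha3 subunit, which is found on monoaminergic and other brainstem neurons, and is the X-linked gene among the 7. It had a scaled signal of 5.42 in the female pool and 5.25 in the male pool. The levels were almost the same: the difference was 0.05 ± 0.21 on the log2 scale (software error), or 1.03-fold. In its signal bin, 21.6% of genes had a smaller difference. Another X-linked subunit gene, Gabrq, which encodes the theta subunit, had 133 in the female and 139 in the male pool.

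Gabra4 encodes the alpha4 subunit, which gives receptors that diazepam does not act on and is often found outside synapses together with the delta subunit. It had a scaled signal of 6.53 in the female pool and 6.28 in the male pool. The difference was 0.06 ± 0.21 on the log2 scale (software error), or 1.04-fold, and 26.9% of genes in its signal bin had a smaller one. The delta subunit gene Gabrd had 7.87 in the female and 7.09 in the male pool, 1.11-fold apart.

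Gabra5 encodes the alpha5 subunit, best known from tonic inhibition in the hippocampus, and was the dimmest of the 7 genes. It had a scaled signal of 1.98 in the female pool and 2.18 in the male pool. Before correction, its spot was 2.17 times the local background in the female pool and 2.19 times in the male pool. The difference was -0.14 ± 0.22 on the log2 scale (software error), or 1.099-fold lower in the female pool. In its signal bin, the dimmest, 34.6% of genes had a smaller difference.

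Gabrb1 encodes the beta1 subunit, which differs from the other beta subunits in its weak response to the anaesthetic etomidate, and was the brightest of the 7 genes. It had a scaled signal of 127.3 in the female pool and 127.7 in the male pool. The pools were 1.003-fold apart, with a difference of -0.005 ± 0.20 on the log2 scale (software error). Among the 3905 genes in the brightest signal bin, 5.25% had a smaller difference. In the female pool 86.0% of measured genes were dimmer than Gabrb1, and in the male pool 86.1%.

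Gabrb2 encodes the beta2 subunit, the beta subunit of the most abundant GABA-A receptor of the adult brain. Its probes differed far more from each other than between the sexes. The probe for a predicted transcript (A_44_P920519) had a scaled signal of 37.8 in the female pool and 37.9 in the male pool. The probe for the curated transcript (A_64_P099059) had 1.85 in the female pool and 1.90 in the male pool. The first probe was therefore 20.4 times as bright as the second in the female pool and 19.9 times in the male pool. Their mean lay at -0.02 ± 0.15 on the log2 scale (software error), so that the sexes were 1.01-fold apart, and neither probe was more than 1.03-fold apart.

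Gabrg1 encodes the gamma1 subunit, found in glial cells and in some neurons, whose receptors bind benzodiazepines less well than those with the more common gamma2 subunit. It had a scaled signal of 69.1 in the female pool and 74.8 in the male pool. The difference was -0.11 ± 0.20 on the log2 scale (software error), or 1.08-fold lower in the female pool. It was thus within the software error but about as large as the SD of all genes in the brightest bin, 0.13. The difference was larger than the median SD over repeated spots in that bin, 0.039. In that bin 82.0% of genes had a smaller difference. Of 7 astrocyte markers, 3 were brighter and 4 dimmer in the female pool, with a sum of 4679 in the female and 4741 in the male pool, and their part in the value of Gabrg1 was not tested.

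**Figure D2:**
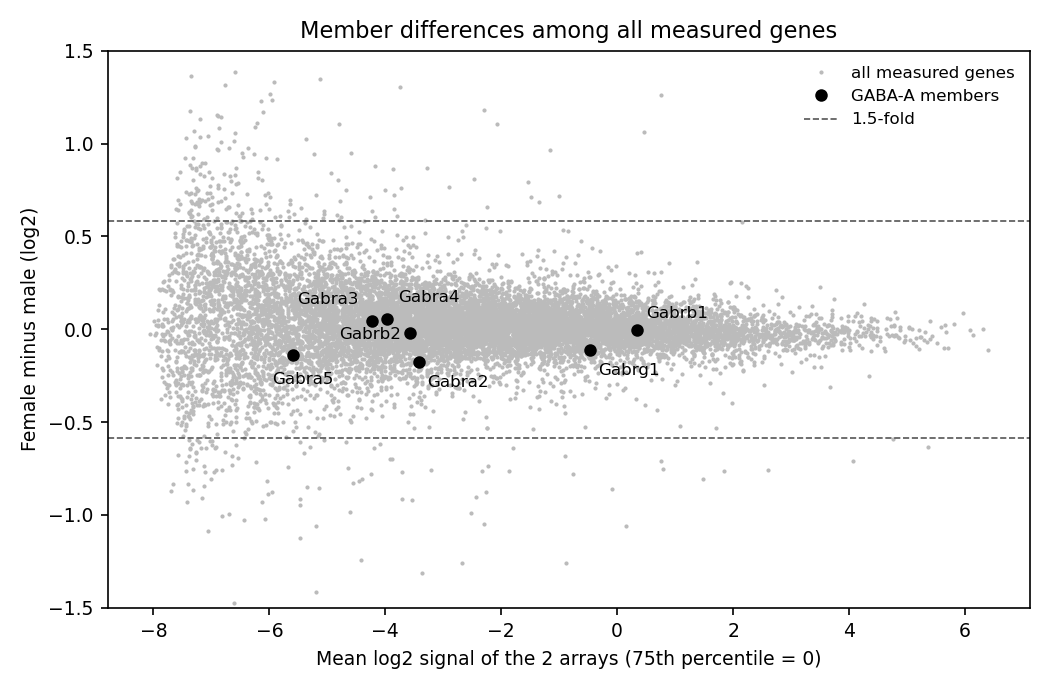
Difference between the arrays (female minus male, log2) against the mean log2 signal for all 13424 measured genes (grey) and the 7 subunit genes (black), with dashed lines at 1.5-fold; 29 genes lie beyond the axis. The subunit genes lie between -0.18 and 0.06, inside the cloud of genes of like signal.

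Ordered by brightness, the 7 genes stood in the same order on both arrays, with Gabrb1 first, followed by Gabrg1, Gabra2, Gabrb2, Gabra4, Gabra3 and Gabra5. Probes of different sequence bind with different strength, so this is an order of probes and not of transcript amounts, and the probes of Gabrb2 alone lay 20.4-fold apart in the female pool. The span from Gabrb1 to Gabra5 was 64.2-fold in the female pool and 58.6-fold in the male pool. Gabrb1 was 1.84 times as bright as Gabrg1 in the female pool and 1.71 times in the male pool. Gabrg1 was 7.83 times as bright as Gabra2 in the female pool and 7.498 times in the male pool. Of the neighbours in the order, Gabra2 and Gabrb2 did not differ beyond the software error in the female pool, at a ratio of 1.05 (1.18 in the male pool), and the place of Gabrb2 is that of a mean of very unlike probes.

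Among the alpha subunits the order was Gabra2, Gabra4, Gabra3 and Gabra5 on both arrays. Gabra2 was 4.45 times as bright as Gabra5 in the female pool and 4.58 times in the male pool. Gabra4 and Gabra3 were close, at a ratio of 1.203 in the female pool and 1.19 in the male pool. With normexp background correction that ratio was 1.01 in the female pool and 0.966 in the male pool, so their order is not settled by these arrays. Among the beta subunits, Gabrb1 was 15.2 times as bright as Gabrb2 in the female pool and 15.04 times in the male pool. These ratios take Gabrb2 as the mean of its unlike probes, at 37.8 and 1.85 in the female pool and 37.9 and 1.90 in the male pool. Gabrb1 was brighter than either probe, but by very different ratios.

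Differences this small depended on the processing for some genes. Of 13 other settings, 7 changed the background correction or the scaling. The remaining 6 changed the choice of probes or spots or used the authors' deposited table of the same intensity, and so left a gene with 1 probe as it was, except that 1 of them left out Gabra5. Gabra2, Gabra5 and Gabrg1 were lower in the female pool in all 7 and Gabra4 was higher there in all 7. However, 3 of the 7 move all genes alike, by amounts from -0.03 to 0.08 on the log2 scale. Such moves are too small to turn the direction of any of these genes, so those 3 are no support for it. All 7 also use the same 2 arrays. Gabra3 was higher in the female pool in 6 of 7, and with cyclic loess its difference was -0.003 on the log2 scale. Gabrb1 was higher in the female pool in 5 of 7 and Gabrb2 in 4 of 7, both against their lower values in the main setting. For Gabrb2 these were both changes of background correction and 2 settings that shift all genes alike, and neither quantile normalization nor cyclic loess turned its direction. Across settings Gabrb1 ranged from -0.04 to 0.07 and Gabrb2 from -0.07 to 0.06. No setting placed any of the 7 genes past 1.2-fold, the largest difference being 1.18-fold for the brighter probe of Gabra2.

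**Figure D3:**
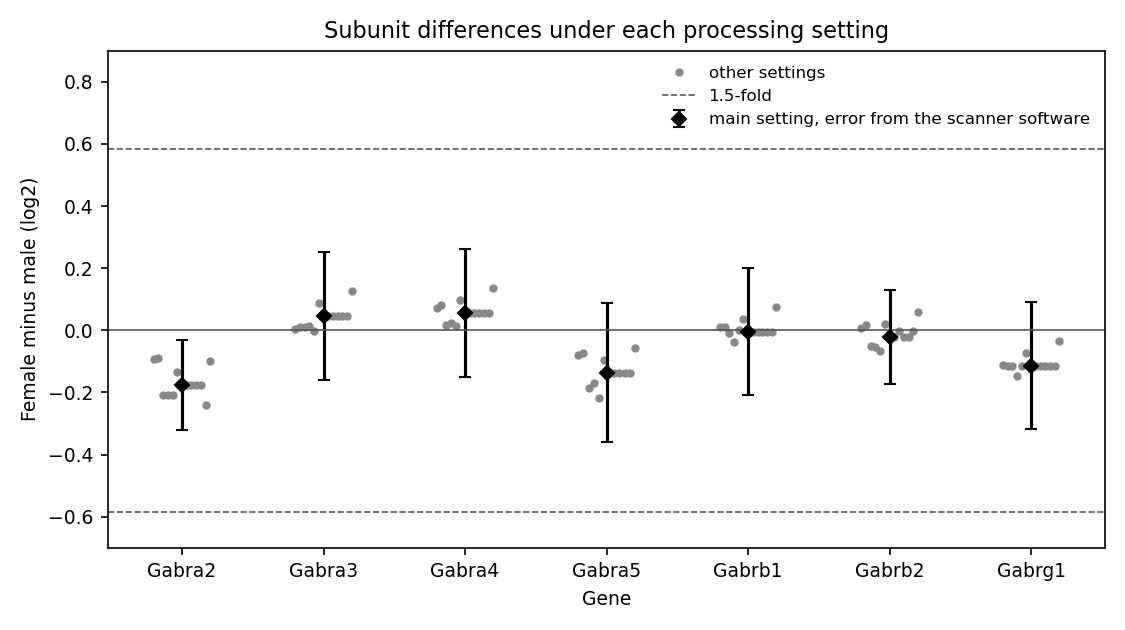
Female minus male difference (log2) of each subunit gene in the main setting (black diamonds, bars showing the scanner software's error) and in the other processing settings (grey points), with dashed lines at 1.5-fold. All points lie between the dashed lines. For Gabrb1 and Gabrb2 they fall on both sides of 0, as they do for Gabra3 through cyclic loess alone (-0.003).

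Of the 7 genes, 4 lie near each other on chromosome 14. In the order of named protein-coding genes of the RefSeq annotation (GRCr8), Gabrb1 is followed by Gabra4, then by Cox7b2, Gabra2 and Gabrg1. The remaining genes lie on chromosome X (Gabra3), chromosome 10 (Gabrb2, next to Gabra6) and chromosome 1 (Gabra5, next to Gabrg3). The 4 genes of chromosome 14 held both the brightest genes, Gabrb1 and Gabrg1, and the dim Gabra4: Gabrb1 was 19.5 times as bright as Gabra4 in the female pool and 20.3 times in the male pool. Their differences between the sexes had a median of -0.06 on the log2 scale, and 1 of the 4 was brighter in the female pool.

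RefSeq promoter sequences were at hand for 6 of the 7 genes, all but Gabra2. The 250 bases before the start of Gabrb1, Gabra4 and Gabrg1 are shown because these genes are grouped on chromosome 14 and include both the brightest and a dim gene. Sequences run 5′ to 3′ on the gene's strand in GRCr8, and capitals mark GGGCGG, the GC box that Sp1 binds.
Gabrb1, chr14:36902894-36903143, minus strand: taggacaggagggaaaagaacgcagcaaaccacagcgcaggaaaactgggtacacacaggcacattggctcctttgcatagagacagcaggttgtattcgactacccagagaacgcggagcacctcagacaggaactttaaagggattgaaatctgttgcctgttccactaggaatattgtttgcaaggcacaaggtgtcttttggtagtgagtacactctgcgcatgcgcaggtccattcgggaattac
Gabra4, chr14:36944497-36944746, plus strand: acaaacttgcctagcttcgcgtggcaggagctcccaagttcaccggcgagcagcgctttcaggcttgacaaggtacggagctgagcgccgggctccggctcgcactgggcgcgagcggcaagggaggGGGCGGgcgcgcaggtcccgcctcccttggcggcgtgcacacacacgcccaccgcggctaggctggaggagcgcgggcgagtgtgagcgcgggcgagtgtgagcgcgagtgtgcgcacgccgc
Gabrg1, chr14:37750042-37750291, plus strand: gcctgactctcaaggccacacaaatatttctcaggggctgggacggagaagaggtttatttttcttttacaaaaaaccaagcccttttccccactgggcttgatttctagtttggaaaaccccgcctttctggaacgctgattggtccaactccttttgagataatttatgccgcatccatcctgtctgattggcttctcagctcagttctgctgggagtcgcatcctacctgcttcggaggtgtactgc

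The windows differed in base composition. The window of Gabra4 was 71.6% G and C with 33 CpG dinucleotides, that of Gabrb1 49.2% with 8, and that of Gabrg1 48.4% with 6. Over all 33469 promoters of this length the median was 51.2% and 5 CpG dinucleotides. Of the remaining genes, Gabra5 had 76.4% and 37, Gabrb2 43.2% and 8, and Gabra3 40.4% and 0. On either strand, GGGCGG matched in Gabra4 and Gabra5 and in 30.5% of all promoters, and TATAAA, the TATA box, matched in Gabra3 and in 12.9%. The cAMP response element TGACGTCA, in 1.59% of all promoters, and the Egr element GCGGGGGCG, in 2.45%, matched in none of the 6. GGGCGG and GCGGGGGCG can overlap in part. These are matches of letters in a window, and no binding was measured here.

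Of 12 subunit genes outside the 7, 6 were measured on both arrays, none of these past 1.5-fold, against 2.29% of all measured genes. Their median was 0.01 on the log2 scale. Gabrg3, which encodes the gamma3 subunit, had 4.53 in the female and 4.205 in the male pool, as a mean of a probe that was 1.16-fold higher in the female pool and a probe that was 1.005-fold lower there. Gabre, the X-linked gene of the epsilon subunit, was well above background only in the female pool, where its scaled signal was 0.819. In the male pool, at 0.389, it was not well above background and lay near the lowest signal called above it there (0.365). The ratio of the female to the male signal was 2.11, which is not a lower bound, since the male signal is uncertain. The software error of this difference was 0.44 on the log2 scale. Before correction, the spot of Gabre was 1.43 times the local background in the female pool and 1.24 times in the male pool. Gabra6, the alpha subunit of cerebellar granule cells, was not well above background on either array. The rho subunit genes Gabrr1 and Gabrr2 were likewise below it on both arrays, and Gabrr3 was above it only in the male pool, at 0.338 in the female and 0.405 in the male pool.

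Genes that cluster or transport GABA-A receptors gave 0 of 20 measured genes past 1.5-fold, with a median of 0.01 on the log2 scale against 0.02 over all measured genes. Since 2.29% of all measured genes were past 1.5-fold, a count of 0 does not set apart this list or the short lists below. Shisa7, an auxiliary subunit of GABA-A receptors, had the largest difference, with 47.1 in the female and 40.1 in the male pool (1.17-fold). Gabarapl1, a relative of the GABA-A receptor-associated protein with a role in autophagy, was within 1.01-fold.

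Genes of GABA synthesis, transport and breakdown had 0 of 8 past 1.5-fold, against 2.29% of all measured genes, and a median of 0.04. Gad1 and Gad2, which encode the enzymes that make GABA, were brighter by 1.08-fold and 1.12-fold in the female pool. The GABA transporter gene Slc6a13, which is also a marker of meninges, was brighter there by 1.13-fold.

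Genes that set the chloride gradient, on which the effect of GABA-A receptors depends, had 0 of 9 past 1.5-fold and a median of 0.00. Over all measured genes 2.29% were past 1.5-fold. Slc12a5, the neuronal chloride exporter gene, had 79.4 in the female and 70.4 in the male pool (1.13-fold), and Wnk1, a kinase gene that regulates such transporters, was within 1.03-fold. Of 4 measured GABA-B receptor genes, 0 were past 1.5-fold. Kctd16, an auxiliary subunit gene, was 1.09-fold higher in the female pool and Gabbr1 was 1.02-fold lower.

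Of 6 measured genes of endogenous modulators of GABA-A receptors (neurosteroids and endozepines), 4 were lower and 2 higher in the female pool, with a median of -0.20. Past 1.5-fold were 0 of them, against 2.29% of all measured genes. Dbi, whose peptide binds at the benzodiazepine site, had 1866 in the female and 2221 in the male pool, 1.19-fold lower in the female pool. Hsd3b2, a steroid synthesis enzyme gene, was 1.46-fold lower there but dim, at 0.837 in the female and 1.22 in the male pool. Tspo, a mitochondrial protein gene of glia and microglia, had 61.8 in the female and 74.5 in the male pool, 1.21-fold lower in the female pool. Star, which brings cholesterol into mitochondria for steroid synthesis, was higher in the female pool but dim, at 0.617 in the female and 0.501 in the male pool. The 6 measured microglia markers (sum 299 female, 329 male) and the 8 oligodendrocyte markers were dimmer in the female pool, whereas the 7 astrocyte markers were split, with 3 brighter and 4 dimmer there. Their part in the lower values of Dbi and Tspo was not tested.

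**Figure D4:**
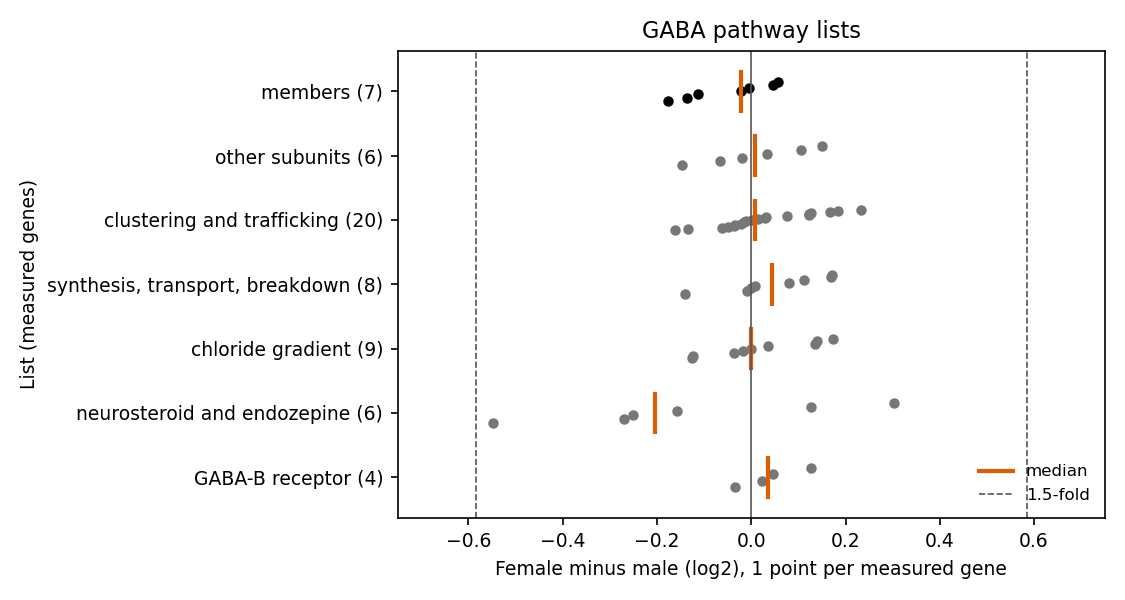
Female minus male difference (log2) of each measured gene in the lists of GABA signalling genes, with the list median in orange and dashed lines at 1.5-fold. All genes lie between the dashed lines, and the neurosteroid and endozepine list has the lowest median, -0.20.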

How the data were processed

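The deposited scanner files hold spot intensity on a linear scale from 1-colour Cy3 arrays, read with Agilent Feature Extraction (version 11.5.1.1 per the file headers, 9.1 per the submitters' processing notes). Its processed intensity, as deposited, is background-corrected. The authors' deposited value table is that intensity divided by 1 constant per array, 23.4 for female and 22.8 for male. Its scale is linear, and its column medians were 19.6 and 19.4.

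Each array's 75th percentile over 58717 spots outside the controls was subtracted on the log2 scale. Spots with an outlier flag on either array were left out. Probes were named by RefSeq accession, which matched 21109 of 45595. A gene is the mean of its probes well above background on both arrays. A fold is brighter over dimmer. For Gabre the dim side was the higher of the lowest signal above background and the probe's own signal, which was the latter. Members and lists were chosen with earlier results of these data known. Named genes are the 7 members, other subunit genes, and from each list those past 1.5-fold or else the brightest gene and the one with the largest difference. Marker lists are given by sums and counts, with their brightest genes. Gad1, Gad2, Star and Tspo were chosen after their values were seen. Some genes that the rule picked are counted but not reported here by name. With 2 arrays no gene can be ranked for a pattern like that of a member. Code was tested on simulated data. Tools were Python 3.11.15, numpy 2.4.6, pandas 2.3.3, R 4.3.3 and limma 3.58.1.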

Additional observations from a re-analysis of the deposited data

How the results depend on the processing

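No paired analysis was possible because there is a single array per sex. In all 13 other settings, and with a fold of 1.2 or 2, 0 of the measured subunit genes were past the fold, and their median stayed between -0.07 and 0.06 on the log2 scale. Gabra5 had no value in the brighter 75% of probes, so the order of subunits was not computed there. With normexp or with no background correction the order of subunits within the alpha and beta classes held for 13 of 14 comparisons, since Gabra3 then passed Gabra4 on the male array. In the other settings it held for 14 of 14, but most of these cannot change it. Shifts of a whole array, quantile normalization and the authors' table keep the order of spots within an array. Filters on flags and background leave the subunit probes as they are. The 14 of 14 is therefore no support for the order. Normexp and no background correction used each spot's median signal, in place of the mean named in the plan. Of all measured genes, 308 of 13424 were past 1.5-fold in the main setting. The count was 70 with normexp and 88 with no background correction, of the same 13424 genes. It was 111 of 11272 in the brighter 75% of probes and 1647 of 16581 with all probes kept, dim ones included. Among 13424 genes it was 1581 at a fold of 1.2 and 74 at a fold of 2. At such shares a count of 0 does not set the subunit genes apart. Centring on spike-in controls was chosen after seeing the data, and moved all genes by 0.08 on the log2 scale. Precision is limited by 2 arrays, 1 spot per probe and, for Gabra5 and the dimmer probe of Gabrb2, a signal close to background.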
